A study of Mus musculus with 3 samples.

Results

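The genes described here encode the proteins of basement membranes, the collagens and the integrins, with a few matrix glycoproteins and dystroglycan. Members were chosen by name alone: every laminin chain, collagen chain and integrin subunit in the deposited tables, together with Nid1, Nid2, Hspg2, Sparc, Fn1, Agrn and Dag1. The rule returned 88 of 36808 genes. They were 11 laminin chains, 42 collagen chains, 27 integrin subunits, the 7 genes named above and Col4a3bp, whose name starts like a collagen's but which encodes a ceramide transfer protein and is counted here only because the rule takes it. The 3 libraries of mRNA-seq, 1 per group, came from the mouse ES cell line D3, derived from the strain (C3H/HeH x 101/H)F1. They were wild-type ES cells at day 0, wild-type day 4 embryoid bodies (EBs), which are floating clumps of differentiating ES cells, and day 4 EBs with Brachyury knockdown, all of them taken whole. A column header calls the control EBs nontarget; the sources used here give neither the knockdown reagent nor whether the ES cells had received one. No difference below has a replicate check, and no test between conditions could be run.

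A basement membrane is a thin sheet of matrix under an epithelium. Laminin, a trimer of an alpha, a beta and a gamma chain, forms one network in it and type IV collagen, a trimer of alpha chains, forms another. Nidogens and the proteoglycan perlecan link the networks, and cells hold on to laminin through integrins, pairs of an alpha and a beta subunit, and through dystroglycan. In the early mouse embryo these sheets lie under the primitive endoderm and the epiblast, and in EBs they form between the outer endoderm layer and the cells inside. During gastrulation cells leave through a breach in the sheet at the primitive streak, where Brachyury is expressed.

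Levels were deposited as FPKM, fragments scaled to transcript length and library size. In the first table the FPKM of all genes summed to 568352 in ES cells and 781453 in control EBs. In the second they summed to 786277 in control and 760578 in knockdown EBs. Levels of different libraries are therefore not on quite the same scale, and results with scaled libraries are given at the end. A gene was compared when it reached 1 FPKM in either library of a table, and it is called higher or lower when log2(FPKM + 1) differed by at least 1. In control EBs against ES cells this called 15.8% of 13932 genes higher and 19.5% lower. In knockdown against control EBs it called 5.34% of 13778 genes higher and 2.53% lower. Brachyury (T) was at 0.297 FPKM in ES cells, 254 in control EBs and 2.47 in knockdown EBs, in the direction of the labels. From ES cells to control EBs all 7 compared ES cell markers were lower and all 7 streak markers higher. In knockdown against control EBs 3 of these 7 ES cell markers were higher and 0 lower. They were Zfp42 (5.51 FPKM in control and 28.5 in knockdown EBs), Dppa5a (97.6 and 360) and Esrrb (1.33 and 6.69). Of the 7 streak markers 4, T among them, were lower there and 0 higher. Sox2, another ES cell marker, was listed at 0 in every library, so a listed 0 can be a failed estimate. Depth is unknown, since the tables hold no counts. The control EB library was quantified once in each table, and for members at 1 FPKM or more in both these values differed by at most 1.04-fold. The p-value deposited with each pair of values implies an error, if the test was two-sided and normal on the log ratio, given below as a 95% interval of the fold or ratio. It covers the measurement of a single pair of libraries, without any variation from culture to culture. For genes near 10 FPKM the median of this interval reached 2.37-fold either way, and near 1 FPKM it reached 17.5-fold.

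The promoters of 5 members are shown because they stand for both behaviours described below: Lamb1, Nid1 and Hspg2 were lower in control EBs relative to ES cells, whereas Lama5 and Itgb1 were within the size rule. Each is the part of the 250 bases before the RefSeq start site that holds no annotated exon, on build GRCm38.p6, read 5′ to 3′ on the strand of the gene. Capitals mark GC boxes (GGGCGG or its reverse complement) and CCAAT boxes (CCAAT or ATTGG).
Lamb1 (chr12:31265043-31265233, plus strand): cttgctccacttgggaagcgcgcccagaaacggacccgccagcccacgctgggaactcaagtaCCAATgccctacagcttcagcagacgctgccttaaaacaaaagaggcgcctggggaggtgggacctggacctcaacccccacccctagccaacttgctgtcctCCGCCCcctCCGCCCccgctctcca
Nid1 (chr13:13437352-13437550, plus strand): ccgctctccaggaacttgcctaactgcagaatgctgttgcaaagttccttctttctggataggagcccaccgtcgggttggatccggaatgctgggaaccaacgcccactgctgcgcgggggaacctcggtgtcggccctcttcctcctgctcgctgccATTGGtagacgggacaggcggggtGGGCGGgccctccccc
Hspg2 (chr4:137468553-137468768, plus strand): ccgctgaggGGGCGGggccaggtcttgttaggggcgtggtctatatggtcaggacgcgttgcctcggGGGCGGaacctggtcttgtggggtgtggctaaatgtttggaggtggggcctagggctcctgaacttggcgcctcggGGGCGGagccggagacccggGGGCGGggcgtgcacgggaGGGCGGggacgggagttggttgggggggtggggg
Lama5 (chr2:180225860-180226109, minus strand): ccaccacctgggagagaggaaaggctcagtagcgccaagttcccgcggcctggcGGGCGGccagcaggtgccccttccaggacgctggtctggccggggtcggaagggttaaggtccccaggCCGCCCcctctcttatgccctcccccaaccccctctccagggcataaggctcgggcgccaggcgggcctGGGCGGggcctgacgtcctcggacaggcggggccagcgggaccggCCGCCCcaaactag
Itgb1 (chr8:128685404-128685653, plus strand): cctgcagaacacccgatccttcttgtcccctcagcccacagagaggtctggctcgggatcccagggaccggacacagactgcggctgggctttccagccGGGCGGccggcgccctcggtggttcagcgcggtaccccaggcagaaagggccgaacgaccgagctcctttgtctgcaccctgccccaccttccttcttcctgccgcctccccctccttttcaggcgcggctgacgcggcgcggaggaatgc
Of 71 windows of 300 bases that RefSeq start sites gave for 63 members, 56.3% held a GC box and 28.2% a CCAAT box, against 35.7% and 37.4% of all 32851 windows. The half-site AGGTGTGA, which T-box factors are known to bind, was in 0 of the 71 windows on either strand and in 1.28% of all windows. At so low a share of all windows, 0 of 71 cannot tell members from other genes. Lama1, Lamc1, Nid2 and Fn1 were among the members without a window, so their promoters were not searched for any of these boxes or sites. The counts are of matching letters and say nothing of binding.

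The first comparison asked how these genes differed between undifferentiated ES cells and EBs after 4 days. The genes of the basement membrane itself were lower in control EBs almost throughout, while the main integrin beta subunit was not. Of 37 members compared, 24 were lower (64.9%) and 3 higher (8.11%), against the 19.5% and 15.8% of all genes given above. The median difference of log2(FPKM + 1) was −1.46 for members and −0.10 for all genes compared. Of the 21 structural genes of basement membranes (laminins, nidogens, perlecan, agrin and type IV collagen) 12 were compared and 11 were lower, and their summed level was 755 FPKM in ES cells against 144 in control EBs. For 17 of the 24 lower members the unadjusted p in the authors' deposited table was under 0.05, a combination met by 13.9% of all genes compared. The 24 were 2.20-fold to 54.0-fold lower, with a median of 6.39-fold. The other 51 members stayed under 1 FPKM in both libraries, and 44 of the 88 stayed under 1 FPKM in every library.

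**Figure D1:**
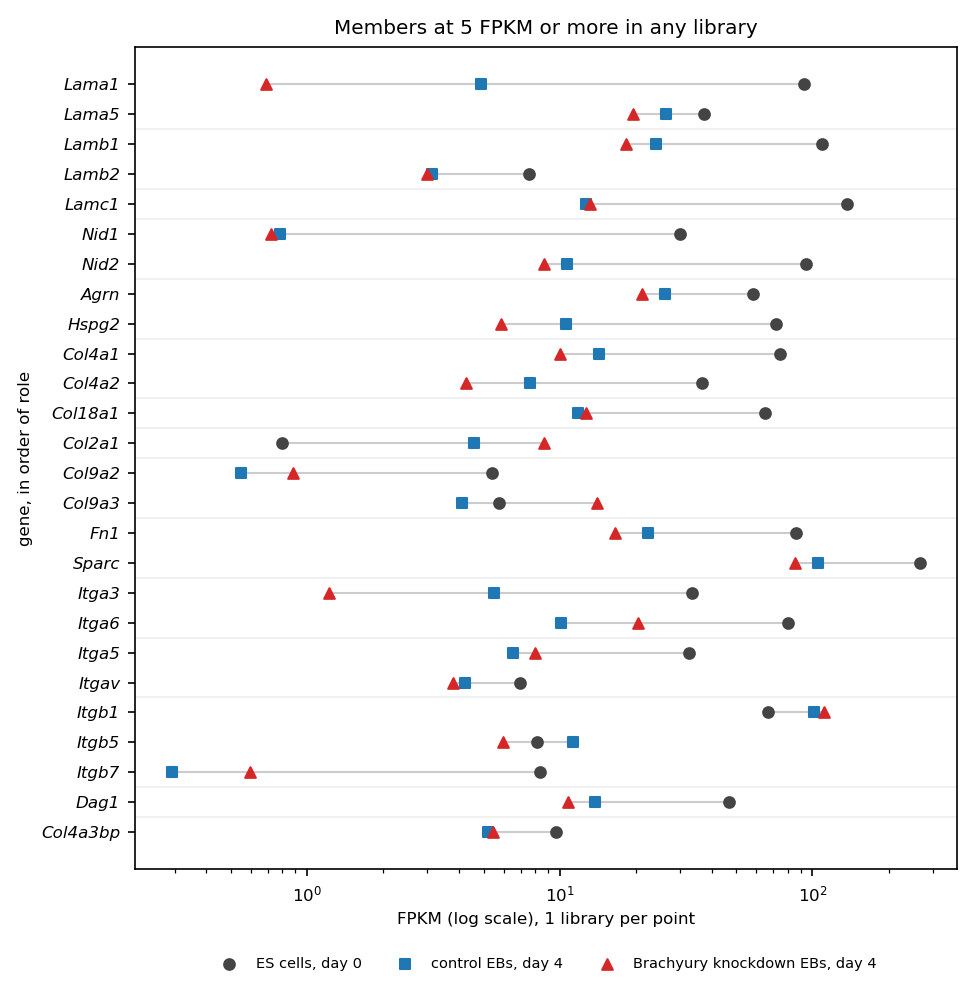
FPKM of the 26 members that reached 5 FPKM in any library, on a log axis, with 1 point per library and genes ordered by role; control EBs are shown as quantified beside the knockdown. ES cells (circles) lie to the right of both EB libraries for the laminin, nidogen and type IV collagen chains shown, whereas for Itgb1 they lie to the left.

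Laminin chains made up 389.5 of the 755 FPKM of structural genes in ES cells. Lama1 (ENSMUSG00000032796, chromosome 17, 68046605 to 68171985 on mm9), the alpha chain of the first laminin made in the embryo, was at 92.9 FPKM in ES cells, 4.88 in control EBs and 0.690 in knockdown EBs. It was 19.04-fold lower in control EBs relative to ES cells (95% interval 7.66 to 47.3). Its partner Lamb1 (chromosome 12, 31950099 to 32014509), a beta chain, was at 109, 24.1 and 18.3 FPKM, 4.51-fold lower in control EBs (2.90 to 7.01). The gamma chain Lamc1 (chromosome 1, 155066052 to 155179916) was at 137, 12.6 and 13.1 FPKM and 10.9-fold lower, with a p listed as 0 in the authors' deposited table, which leaves no interval. In all 3 chains the ES cell value stood far above both EB values.

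The other alpha chain in use, Lama5 (chromosome 2, 179911078 to 179960564), behaved differently. It was at 37.1 FPKM in ES cells, 26.3 in control EBs and 19.6 in knockdown EBs, 1.41-fold lower in control EBs with an interval of 0.847 to 2.36 that includes 1. Lama1 made up 70.5% of the summed alpha chain FPKM in ES cells, 15.4% in control EBs and 3.36% with knockdown. Lama5 made up 28.2%, 83.3% and 95.3%. In the beta family no such exchange of the leading chain was seen, and Lamb1 made up 93.2%, 86.5% and 81.9%. Lamb2, the beta chain of synaptic and kidney basement membranes, was at 7.57, 3.13 and 2.99 FPKM and is called lower, but its interval of 0.648 to 9.05-fold includes 1. Lama2, Lama3, Lama4 and Lamb3 lay between 0 and 1.08 FPKM in the 3 libraries. Lamc3 was listed at 0 in all of them.

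**Figure D2:**
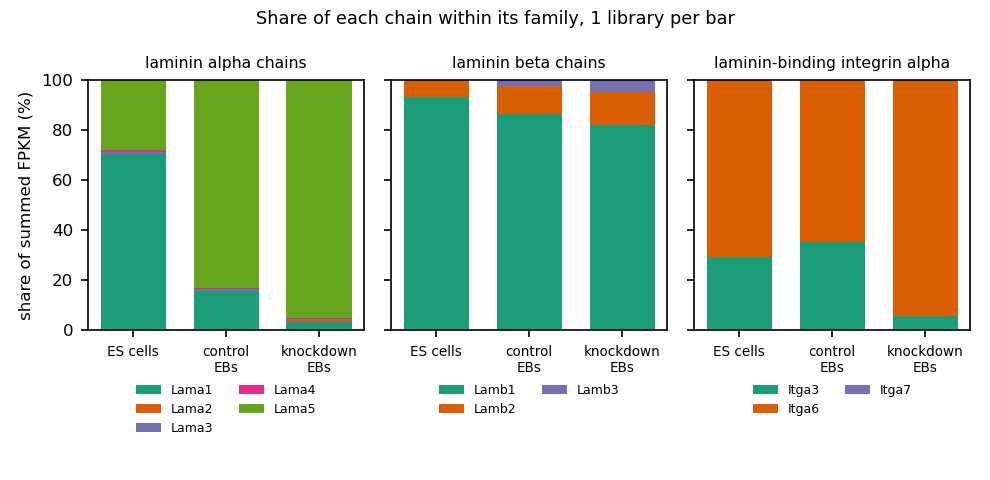
Share of each chain in the summed FPKM of its family (y axis, percent) for laminin alpha and beta chains and laminin-binding integrin alpha subunits, 1 library per bar, control EBs as quantified beside the knockdown. Lama5 takes the larger share of alpha chains in both EB libraries (83.3% and 95.3%), and Itga3 shrinks to 5.67% of the integrin group in the knockdown library.

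The linkers of the networks were among the genes with the greatest differences. Nid1 (chromosome 13, 13529869 to 13604542), which bridges laminin and type IV collagen, was at 30.0 FPKM in ES cells, 0.782 in control EBs and 0.720 in knockdown EBs. That is 38.4-fold lower in control EBs, imprecise at so low a level (4.07 to 363). Its paralog Nid2 was at 94.4, 10.7 and 8.66 FPKM and 8.85-fold lower. Nid2 therefore stood 3.14-fold above Nid1 in ES cells and 13.6-fold above it in control EBs. Perlecan (Hspg2), a heparan sulphate proteoglycan, was at 71.7, 10.6 and 5.88 FPKM, 6.74-fold lower in control EBs (3.52 to 12.9). Agrin (Agrn), a related proteoglycan, had the smallest fold of FPKM among the called structural genes, at 57.9, 26.4 and 21.1 FPKM and 2.20-fold lower (1.38 to 3.49). It no longer passed the size rule when the libraries were scaled to an equal upper quartile, with a difference of −0.96. Lamb2 failed it there too, at −0.94, and with equal medians at −0.97.

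Type IV collagen showed 1 pair of chains in use. Col4a1 was at 74.7 FPKM in ES cells, 14.3 in control EBs and 10.04 in knockdown EBs, and Col4a2 at 36.7, 7.63 and 4.25 FPKM. They were 5.22-fold (3.30 to 8.28) and 4.81-fold (3.06 to 7.58) lower in control EBs, and the ratio of Col4a1 to Col4a2 was 2.04, 1.88 and 2.36 in the 3 libraries. The pair lies head to head on chromosome 8, and on GRCm38.p6 their RefSeq start sites, on opposite strands, are 21 bases apart with the first bases of the transcripts overlapping, so that 78 bases belong to both promoter windows. Both were deposited with 1 locus of 4 genes (11187755 to 11449287 on mm9), and the sources used here do not say whether counting used strand. Col4a5 and Col4a6, the pair on the X chromosome, were listed at 0 in ES cells and at 0.903 and 0.232 FPKM in control EBs. Col4a3 and Col4a4 were listed at 0 in all libraries.

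Most collagens outside this pair were near absent. Of the 36 collagen chains other than type IV, 26 stayed under 1 FPKM in all libraries, and these included Col1a1, Col1a2 and Col3a1, the main chains of connective tissue fibrils, whose highest value was 0.386 FPKM. Col18a1, a basement membrane collagen that carries heparan sulphate, had the highest level of the other 10 in ES cells and control EBs, at 65.1 FPKM in ES cells, 11.4 in control EBs and 12.7 in knockdown EBs. It was 5.70-fold lower in control EBs (3.32 to 9.81). Col2a1, the fibrillar collagen of notochord and cartilage, was called higher, at 0.799 FPKM in ES cells against 4.58 in control EBs, with an interval that includes 1 (p = 0.150 in the authors' deposited table). Col16a1 was called higher from a listed 0 to 1.55 FPKM. The fibril-associated Col9a2 was called lower, at 5.42 and 0.550 FPKM (0.603 to 161-fold).

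Both matrix glycoproteins were lower. Sparc, a collagen-binding protein that was the most abundant member in ES cells, was at 265 FPKM there, 105 in control EBs and 85.0 in knockdown EBs, 2.54-fold lower in control EBs (2.02 to 3.19). Fibronectin (Fn1), the ligand of integrin alpha 5, was at 86.1, 22.4 and 16.5 FPKM and 3.85-fold lower (2.42 to 6.12). Sparc still had the highest level of all members in control EBs.

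Among the receptors Itgb1 stood apart from the alpha subunits named next. Itgb1 (chromosome 8, 131209554 to 131257100), the beta subunit shared by most matrix-binding integrins, was at 66.8 FPKM in ES cells, 101 in control EBs and 111 in knockdown EBs. Its value in control EBs was 1.52-fold that in ES cells, with an interval of 1.11 to 2.07 that leaves out 1 (p = 0.00839 in the authors' deposited table), and the difference was within the size rule. Itga6, Itga3 and Itga5, which pair with it, were lower. Itga6 (chromosome 2, 71583673 to 71696473, in a locus of 5 genes), a laminin receptor, was at 80.2, 10.1 and 20.3 FPKM and 7.96-fold lower in control EBs (4.13 to 15.3). Itga3, another laminin receptor, was at 33.3, 5.52 and 1.23 FPKM and 6.04-fold lower (2.45 to 14.9). Itga5, the fibronectin receptor subunit, was at 32.6, 6.52 and 7.97 FPKM and 4.99-fold lower (2.15 to 11.6). The summed FPKM of the 18 alpha subunits was 163 in ES cells against 33.8 in control EBs, or 2.44 and 0.334 times the FPKM of Itgb1.

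Of 9 alpha subunits compared 5 were lower and 1 was higher, against 19.5% and 15.8% of all genes. The higher one was Itga8, which pairs with Itgb1 to bind matrix ligands such as nephronectin, at 0.428 and 4.33 FPKM with an interval that includes 1 (p = 0.150 in the authors' deposited table). Itgav, the alpha subunit of vitronectin receptors, was at 6.99, 4.24 and 3.77 FPKM and within 2-fold. Itga10 (2.76 and 0.377 FPKM) and the leukocyte subunit Itgal (1.93 and 0.0651 FPKM) were called lower at low levels. Of 5 beta subunits compared 3 were lower and 0 higher, against the same shares of all genes. The lower ones were Itgb7 (8.38 and 0.293 FPKM), Itgb4 (4.21 and 0.603 FPKM) and Itgb3 (1.88 and 0.0347 FPKM), and for each the interval includes 1. Itgb5, a vitronectin receptor subunit, was at 8.13, 11.3 and 5.98 FPKM. Dystroglycan (Dag1), which binds laminin from outside the integrin family, was at 46.6, 13.8 and 10.8 FPKM and 3.38-fold lower (1.85 to 6.16). Itga9 was listed at 0 throughout the first table but at 1.85 FPKM for the control EBs in the second, so its direction is not given.

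**Figure D3:**
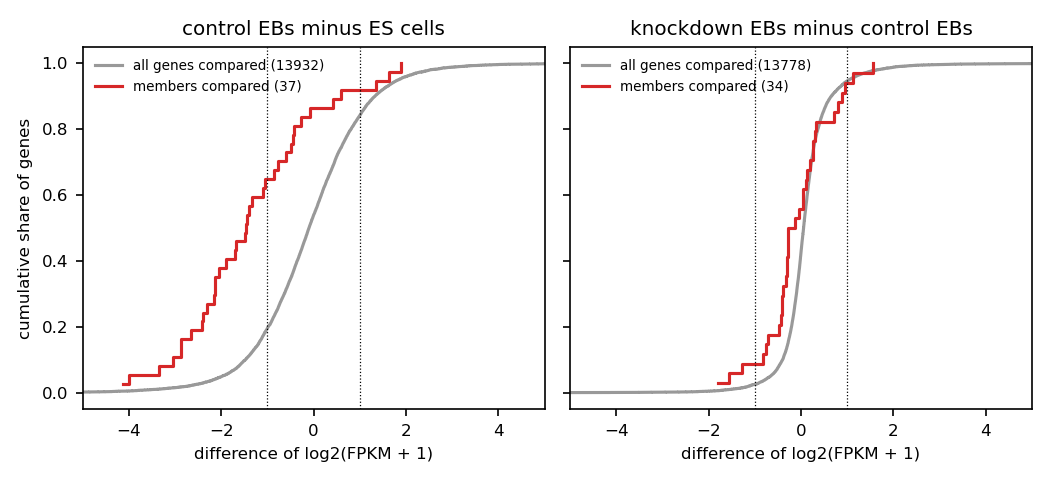
Cumulative share of genes (y axis) by difference of log2(FPKM + 1) (x axis) for members (red) and all genes compared (grey), 1 library against another in each panel, with dotted lines at the size rule of 1 in either direction. In control EBs minus ES cells the members lie to the left (median −1.46 against −0.10), and in knockdown minus control EBs both curves centre near 0 (median −0.20 against 0.057).

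Transcript length moved with this comparison. Most members are long, with a median of 5.29 kb for the longest coding transcript of the 37 compared against 3.06 kb for all coding genes compared. The median difference of all coding genes was 0.42 under 1.5 kb, −0.28 at 5 to 7 kb and −0.44 at 7 kb or more, and 23.4% and 26.9% of genes in the last 2 classes were lower. Of the members in these classes 12 of 16 and 5 of 8 were lower, with medians of −1.47 and −1.50. Members of 3 to 5 kb stood nearer to genes of their length. Of these 10 members 4 were lower, with a median of −0.66, against 22.9% and −0.30 for all coding genes. All 3 members of 1.5 to 3 kb were lower, against 18.1% of coding genes. What part length has in the values of single members was not tested.

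Markers of extraembryonic endoderm, a cell layer that secretes much basement membrane, were read from a list without matrix genes. Of 16 compared, 7 were lower in control EBs relative to ES cells and 4 were higher, or 6 and 4 of 15 without Sox17, whose control value was 0.312 FPKM in one table and 26.3 in the other. Gata4 was at 47.6 and 5.46 FPKM, Dab2 at 29.6 and 5.94, Pdgfra at 7.18 and 1.90, and Sox7 at 4.44 and 0.232. Among the higher ones Foxa2, which nascent endoderm and node also express, was at 2.11 and 43.2 FPKM, Fst at 2.06 and 39.3, Cited1 at 1.57 and 6.42, and Ttr at a listed 0 and 1.68. Without Sox17 the summed level of the other 18 markers was 535 FPKM in ES cells, 551 in control EBs and 486 in knockdown EBs, most of it Apoe (400.2, 427 and 389 FPKM). Afp, Ttr and Apoa1 were listed at 0 in ES cells, and Afp and Thbd in knockdown EBs. The part of such cells in the matrix values was not tested, and fewer cells of a type cannot be told apart from less RNA per cell in whole cultures. Of 17 fibroblast markers 11 stayed under 1 FPKM in all libraries, and Lum, Fap, Lox, Ptx3 and S100a4 were listed at 0 in each. The list summed to 7.40 FPKM in ES cells, 22.8 in control EBs and 25.4 in knockdown EBs. Of 4 compared, 3 were higher in control EBs relative to ES cells and 0 lower, against 15.8% and 19.5% of all genes. Cnn1 was at 0.699 and 5.77 FPKM and Twist1 at 1.99 and 5.70. In the knockdown comparison 1 of 6 was higher and 2 lower, against 5.34% and 2.53% of all genes. Dcn was at 0.253 and 9.12 FPKM in the control and knockdown libraries, and Cnn1 at 5.77 and 2.03. Of 8 leukocyte markers, Ptprc and Tyrobp were listed at 0 in every library and the sums were 24.3, 18.7 and 26.2 FPKM, most of it Cd68 in ES cells and control EBs. Of 2 compared, 0 were called in control EBs against ES cells. In the knockdown library 1 of 2 was higher, against 5.34% of all genes, namely Coro1a (3.49 and 10.97 FPKM). The 6 endothelial markers summed to 19.8, 1.22 and 2.93 FPKM, most of it Pecam1 in ES cells (13.8 FPKM), and 4 of the 6 stayed under 1 FPKM in all libraries. The 2 compared, Pecam1 and Tek, were lower in control EBs relative to ES cells, against 19.5% of all genes. In the knockdown comparison 0 of 2 were called.

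Genes that work on or beside the matrix followed in part. Of 24 compared genes of integrin adhesion and signalling 13 were lower and 3 higher in control EBs, with a median difference of −1.11. The integrin-linked partner Parvb was at 46.1 FPKM in ES cells against 2.13 in control EBs, Fblim1, a filamin-binding adhesion protein, at 123 and 8.32, and the tensins Tns3 and Tns1 at 56.3 and 4.63 and at 5.64 and 0.193. Of 22 genes of collagen modification, secretion and crosslinking 9 were lower and 1 higher (median −0.76). Pcolce2, an enhancer of procollagen processing, was at 7.53 and 0.859 FPKM. The lysyl hydroxylases Plod1 and Plod3 were at 15.4 and 3.38 and at 31.1 and 8.78 FPKM, and the prolyl hydroxylase Lepre1 at 21.98 and 6.69. Ppib, the higher one, was at 203 and 524 FPKM, and Serpinh1, the collagen chaperone, stayed within 2-fold at 103 and 142. Of 21 other matrix glycoproteins and receptors 6 were lower and 6 higher (median −0.073). Ltbp4, a binding protein of latent TGF-beta, was at 128 and 3.80 FPKM, osteopontin (Spp1) at 142 and 6.39, the laminin alpha 5 receptor Bcam at 89.8 and 18.7, and Efemp1, a fibulin, at 0.424 and 9.58. Of 14 matrix proteases and inhibitors 3 were lower and 0 higher (median −0.056), with Mmp11 at 19.97 and 3.70 FPKM. Of 12 genes of dystroglycan glycosylation 1, Pomt1, was lower and 1, Dpm2, was higher (median −0.048). These shares stand beside the same 19.5% and 15.8% of all genes.

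The second comparison set day 4 EBs with Brachyury knockdown beside the control EBs. Few did by the size rule. Of 34 members compared, 3 were lower (8.82%), 2 were higher (5.88%) and 29 were within the size rule, against 2.53% lower and 5.34% higher among all genes. The median difference was −0.20 for members and 0.057 for all genes. Col9a3 alone, 1 of the 34, had in the authors' deposited table an unadjusted p under 0.05, which 10.9% of all genes had. It was also higher by the size rule, and 2.78% of all genes met both. All 24 members lower in control EBs were also at 50% or less of their ES cell level in the knockdown library, as were 85.8% of all 2722 genes lower in control EBs, a level set across 2 tables that were quantified separately. Both comparisons share the control library.

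Col9a3 (chromosome 2, 180332495 to 180377413), 1 of the 3 chains of type IX collagen, gave the clearest difference. It was at 4.09 FPKM in the control library and 13.99 in the knockdown library, with 5.78 in ES cells. It was 3.42-fold higher in the knockdown library (1.86 to 6.29), with p = 7.61e-05 in the authors' deposited table. Its deposited locus holds another gene. The partner chains were under 1 FPKM in both libraries and were not compared, with Col9a2 at 0.549 and 0.883 FPKM and Col9a1 at 0.180 and 0.126 FPKM. Col2a1, whose fibrils type IX collagen coats in cartilage, was at 4.57 and 8.68 FPKM and within the size rule (0.609 to 5.94-fold). Col14a1 was the other member called higher, at 0.188 and 1.59 FPKM, a level at which its interval spans several orders of magnitude.

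The laminin-binding integrin subunits differed in opposite directions. Itga3 was at 5.52 and 1.23 FPKM in the control and knockdown libraries and is called lower, to 22.2% of control, with an interval of 0.0313 to 1.58 for the ratio. Itga6 was at 10.1 and 20.3 FPKM, 2.01-fold (0.946 to 4.28), just inside the size rule with a difference of 0.94. The ratio of Itga6 to Itga3 was 2.41 in ES cells, 1.83 in control EBs and 16.6 with knockdown. The intervals of both subunits include 1 (p = 0.132 and p = 0.0693 in the authors' deposited table). Itga8 was the other lower subunit, at 4.28 and 1.18 FPKM (0.0356 to 2.12). Itgb5 was at 11.3 and 5.98 FPKM, and Itgb1, at 101 and 111 FPKM, had the narrowest interval of the beta subunits, 0.840 to 1.44. Itga5 was at 6.52 and 7.97 FPKM. The summed alpha subunits were 0.350 and 0.359 times Itgb1.

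Lama1 was the third member called lower. It was at 4.88 and 0.690 FPKM in the control and knockdown libraries, 7.07-fold lower, but the deposited p of 0.128 leaves an interval of 0.0114 to 1.76 for the ratio. The other 11 structural genes compared were within the size rule. Lamb1 stood at 0.760 of control (0.414 to 1.39), Lama5 at 0.743 (0.410 to 1.35), Hspg2 at 0.556 (0.201 to 1.54), Col4a2 at 0.557 (0.288 to 1.08) and Col4a1 at 0.702 (0.360 to 1.37). Lamc1 stood at 1.04 (0.489 to 2.20). Of the 9 structural genes at 4 FPKM or more in either EB library 8 had a lower value in the knockdown library, with a median ratio of 0.743. The share of all genes with a lower value at this floor was not computed, so the count has no background. The interval left out 1 for 0 of the 9, while 10.9% of all genes compared had an unadjusted p under 0.05 in the authors' deposited table. Differences inside these intervals could not be detected. Sparc, at 105 and 85.0 FPKM, Fn1, at 22.4 and 16.5, and Dag1, at 13.8 and 10.8, likewise had lower values within 2-fold.

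**Figure D4:**
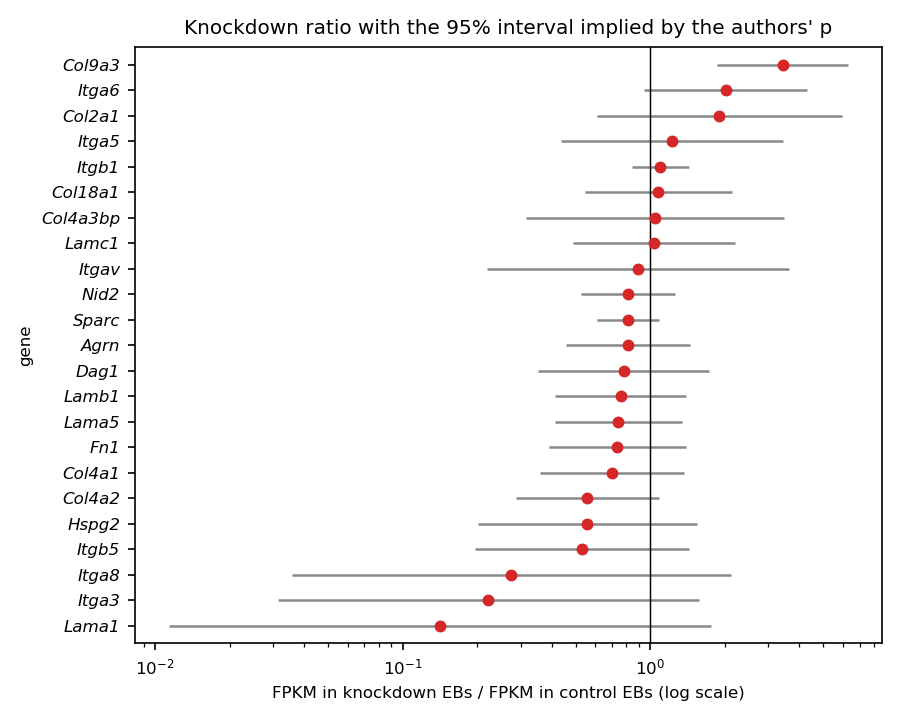
Ratio of FPKM in knockdown to control EBs (points, log axis) with the 95% interval that the deposited p-value implies (lines) for the 23 members at 4 FPKM or more in either EB library; each library is 1 sample. Col9a3 at 3.42 is the 1 member whose interval leaves out the line of no change.

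The neighbouring lists differed in how many genes were called in the knockdown comparison, against 2.53% lower and 5.34% higher among all genes. Of 23 genes of collagen modification and of 12 of dystroglycan glycosylation 0 were called. Of 20 other matrix glycoproteins and receptors 5 were lower and 2 higher (median 0.18). Bcam was at 18.6 and 5.99 FPKM in the control and knockdown libraries, Efemp1 at 9.60 and 2.62, and Spp1 at 6.39 and 57.2. Of 15 proteases and inhibitors Plaur, the urokinase receptor, was lower at 7.77 and 0.911 FPKM and 1 was higher (median 0.28). Of 22 genes of integrin adhesion and signalling 2 were higher and 1 lower (median −0.20), with Fblim1 at 9.004 and 33.3 FPKM, Nedd9, a docking protein of focal adhesions, at 2.24 and 6.34, and Zyx, a focal adhesion protein linked to actin, at 29.7 and 12.95. Of 16 extraembryonic endoderm markers the knockdown library had 5 higher and 2 lower, or 4 and 2 of 15 without Sox17. Among the higher were Gata6 at 7.76 and 18.8 FPKM and Hnf4a at 0.2497 and 12.2. The lower were Fst at 39.3 and 4.44 and Foxa2 at 42.8 and 17.4. Whether extraembryonic endoderm cells have a part in the matrix values of the knockdown library was not tested.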

How the data were processed

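mRNA-seq of 3 libraries, 1 per group, was read from 2 deposited tables, each holding a pair of libraries and no column of other samples. FPKM were made by the authors, who used Bowtie and Cuffdiff on build mm9 per the submitters' processing notes; versions are not given there. The unadjusted p-value and the natural log of the fold change per gene are the authors', per the file headers, and the latter was not used. Coordinates are the deposited loci. Rows of short RNAs (3655) were left out, rows sharing a symbol were summed, and differences of log2(FPKM + 1) were taken within a table with Python 3.11.15, numpy 2.4.6, pandas 2.3.3 and scipy 1.17.1. Figures were drawn with matplotlib 3.10.9. A gene needed 1 FPKM in either library and was called at a difference of 1. Intervals divide the log ratio by the normal quantile of the deposited p. The calculation was run on simulated data with changes larger than the size rule and less noise than the deposited p-values imply near 10 FPKM. That checks the arithmetic and says nothing of how reliable the calls are. FPKM carry no read counts, so depth and counting error are unknown. Values are given for members at 10 FPKM or more that were called, members at 50 FPKM or more, and their partner chains, and, of other lists, up to 4 genes with the greatest difference at 5 FPKM or more; Serpinh1, Sox7, Pdgfra, Dab2, Cited1, Ttr and low members named beside their family were added after their values were seen. Members and lists were chosen with earlier results of these data known. Alternatives changed the pseudocount, floor, scaling, size rule and control column; counts without Sox17 were added after seeing the data. A result for 1 member is not reported here.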

Additional observations from a re-analysis of the deposited data

How the results depend on the processing

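The direction of the members' median held under every alternative listed here. For control EBs against ES cells (−1.46) it was −2.0946 and −1.8942 with pseudocounts of 0.1 and 0.5, −0.3492 with no filter on low values, −2.128 with a floor of 5 FPKM, and −1.4535 and −1.4508 with libraries scaled to an equal median or upper quartile. Alternatives chosen after seeing the data gave −1.4675 without Col4a3bp, −1.4675 without genes listed at 0 in either library, and −1.3356 with genes alone in their locus. For knockdown against control EBs (−0.20) the same order gave −0.2271, −0.2142, −0.0495, −0.2931, −0.2368 and −0.1859, then −0.0929 with the control values of the other table, −0.2713 without Col4a3bp and −0.0498 with genes alone in their locus. The 24 members lower in control EBs became 23 with equal medians, where Lamb2 was lost, and 22 with equal upper quartiles, where Lamb2 and Agrn were. They became 17 with a 3-fold rule and 17 when the deposited p also had to be under 0.05. The shares of all genes lower were 17.7%, 16.9%, 8.55% and 13.9% in that order. Among genes alone in their locus 14 of 23 members compared, in place of 24 of 37, were lower, against 19.8% of all such genes. The 3 higher members became 0 with the floor of 5 FPKM and 1 when the deposited p also had to be under 0.05. The shares of all genes higher there were 15.6% and 11.9%. That 1 was Col16a1, listed at 0 in ES cells. The deposited p was listed as 0 for every member at 0 in only 1 library of a pair, even Lama2 at 0.0378 FPKM in control EBs. In the knockdown comparison the 2 higher members became 5 with a pseudocount of 0.1, 1 with the floor of 5 FPKM, 0 with a 3-fold rule, 1 with the deposited p and 1 alone in their locus. The shares of all genes higher were 8.5%, 4.11%, 2.16%, 2.78% and 5.59% in that order. The members compared were 20 with the floor of 5 FPKM and 19 alone in their locus. The 3 lower members became 1 with the floor of 5 FPKM, 1 with the 3-fold rule and 0 with the deposited p. The shares of all genes lower there were 2.34%, 0.9% and 1.44%. Checks on the 18 named members left out the 3-fold rule and the deposited p. A floor, or the highest row of a symbol in place of the sum, cannot change the value of a member with a single row. Lama1 fell below the floor of 5 FPKM in the knockdown comparison and was not checked there. Of 279 checks 277 gave the same call. Agrn dropped under the size rule at −0.96 with equal upper quartiles. Itga6 passed it at 1.003 in the knockdown comparison with a pseudocount of 0.1. The causes were not tested. With 1 library per group no replicate could be left out, and FPKM below about 10 carried wide intervals. No paired analysis was possible because each group holds 1 library and no test between groups could be run.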
